A study of Mus musculus with 12 samples.

Results

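The genes described here are 43 regulators of RNA splicing and processing, chosen by name: 17 heterogeneous nuclear ribonucleoprotein (hnRNP) genes, counting Syncrip, and 26 others, most of them with known roles in neurons (Rbfox1 to Rbfox3, Celf1 to Celf6, Nova1, Nova2, Ptbp1 to Ptbp3, Mbnl1, Mbnl2, Elavl1 to Elavl4, Khdrbs1 to Khdrbs3, Tia1, Tial1 and Tardbp). All 43 were among the 18208 genes of the RNA-seq table, and all 43 had reads in the hnRNP H CLIP table, in which RNA cross-linked to hnRNP H and precipitated with an antibody to it was sequenced. The study asked which striatal transcripts hnRNP H binds, and whether binding and RNA levels change after a single dose of methamphetamine. The animals were wild-type C57BL/6J mice of postnatal day 50 to 100, born to Hnrnph1 mutant heterozygous males and C57BL/6J females. Every mouse, controls included, received saline on the first 2 days. On day 3 it received saline or methamphetamine at 2 mg/kg, and the striatum was taken 30 min later. Both treatments had 3 pools, each of the striata of 2 females and 2 males, and a part of each pool went to RNA-seq before the rest was cross-linked. The pools, called replicates here, hold different animals, so differences between single mice or between the sexes are not visible. Cross-linked complexes were taken between 50 and 75 kDa, and the RNA fragments were 30 to 70 nt long.

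The RNA-seq libraries held between 3935160 and 5091839 reads, and the CLIP libraries between 423057 and 1635338 reads in peaks. A first principal component was taken over the more highly expressed genes and the positions with more reads. It held 65.6% of their RNA-seq variance and 49.0% of their CLIP variance. In both assays it set saline replicates 1 and 3 and methamphetamine replicate 2 apart from the other 3 libraries, across the treatments. The summed level of 10 markers of striatal projection neurons was 5584 to 8906 CPM (read counts scaled to library size) in all libraries. It was 7662 to 8906 CPM in the first 3 libraries and 5584 to 6412 CPM in the others, while 8 markers of cortical excitatory neurons summed to 187 to 445 and 455 to 857 CPM. Astrocyte markers summed to 464 to 576 and 647 to 770 CPM, and microglia markers to 206 to 226 and 243 to 281 CPM. Markers of neurons in general summed to 1886 to 2346 and 2554 to 2827 CPM. Oligodendrocyte markers overlapped, at 4852 to 11909 and 6478 to 11751 CPM. Choroid plexus markers, 6 genes, summed to 4924 CPM in methamphetamine replicate 2 and to 62.7 to 225 CPM elsewhere. The part of these differences in the results below was not tested.

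hnRNPs coat nascent RNA and steer splicing, export and stability, often by binding that favours or blocks a splice site. Rbfox, Nova, Ptbp, Mbnl, Celf and Khdrbs proteins bind short motifs beside exons and set which exons neurons include, and the neuronal Elavl proteins also stabilise transcripts through their 3′ untranslated regions. Many genes of such regulators carry elements in their own transcripts through which their output is limited, including exons whose use sends the transcript to nonsense-mediated decay (NMD). hnRNP H itself recognises runs of guanines.

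The exonic positions below held many CLIP reads in genes of the group, and the 30 bases shown of each are the stretch richest in guanine runs, read from GENCODE M21 transcripts (GRCm38), 5′ to 3′ on the strand of the gene. Capitals mark runs of at least 3 guanines. The last 2 lines are from positions with many reads and no such run, shown by their middle 30 bases. Both adjoin a position that holds such a run, and fragments can span the border, so they are not clean contrasts.
Syncrip 5′ UTR, chr9:88482241-88482270, minus strand: ggaGGGGaGGGaaGGGGGGtcacgcGGGGG
Hnrnpul2 3′ UTR, chr19:8831669-8831698, plus strand: GGGtgtgcaagtaGGGGtGGGGGaGGGGGG
Hnrnpa1 exon of an NMD transcript, chr15:103245559-103245588, plus strand: GGGGtGGGaggagtGGGaggtgaGGGtGGG
Tardbp coding sequence, chr4:148618620-148618649, minus strand: aGGGtGGGtttggtaacagtagaGGGGGtg
Hnrnpd 5′ UTR, chr5:99978785-99978814, minus strand: gtGGGaggcgaGGGGGGcaggccGGGGaga
Hnrnpa0 3′ UTR, chr13:58127105-58127134, minus strand: tttGGGGGGGcGGGtGGGcGGGcGGGagtg
Hnrnpul2 3′ UTR, next position downstream, chr19:8831746-8831775, plus strand: attgtcttattctataaaacatttcaaacc
Tardbp 3′ UTR, chr4:148618118-148618147, minus strand: ttttcagattggtttgttcagtgtggagta

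The CLIP table gives read counts for positions of 100 nt, and the 43 genes had 2659 of its 147438 positions (1.80%) and 76551 of its 5596005 reads (1.37%). Their share of all peak reads was 1.23% ± 0.146 (SD, n = 3) in the saline libraries and 1.45% ± 0.374 (SD, n = 3) after methamphetamine. The reads were unevenly spread among the genes: Celf2 had 18909 reads in all libraries together, Rbfox1 16265, Rbfox3 7445, Hnrnpul2 4288 and Celf5 4106, and these 5 genes held 66.6% of the group's reads. At the other end Celf6 had 7 reads and Ptbp2 27. Over the 43 genes, CLIP reads per gene were higher where the mean RNA-seq log2 CPM was higher (Spearman rho 0.60). For CLIP reads in exons alone rho was 0.38. All reads per gene followed the length of the gene hardly at all (rho -0.06). These are descriptions across genes of the same libraries.

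The hnRNP genes and the other regulators differed in where the reads lay. In hnRNP genes introns held 25.7% to 30.8% of the reads over the 6 libraries, and 3′ UTRs 28.7% to 43.7%. In the other 26 genes introns held 89.5% to 93.2%, and over all genes 64.9% to 74.5%. The 3′ UTR shares were 2.97% to 6.19% in the other 26 and 5.68% to 10.7% over all genes. These shares sum reads over genes, so that Celf2, Rbfox1 and Rbfox3 weigh most among the 26. In the same way Hnrnpul2, with 4070 reads in its 3′ UTR, supplied most of the 3′ UTR share of the hnRNP genes. The median gene had 37.2% of its reads in introns among the hnRNP genes and 72.2% among the others. Single genes ran from 0% to 96.5% and from 0% to 100%. Of the 17 hnRNP genes 11 had most of their reads in exons of any kind, against 7 of the other 26 (Celf1, Celf3, Elavl1, Elavl2, Tia1, Tial1 and Tardbp). Some of these exons are intronic in other coding transcripts of the gene. Such positions held 15.1% to 30.8% of the reads of hnRNP genes, 4.68% to 6.83% in the other 26 and 4.63% to 5.73% over all genes. The gene bodies differed in size as well: hnRNP genes spanned a median of 14.1 kb and the others 78.3 kb, with Rbfox1 the longest at 1526 kb.

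**Figure D1:**
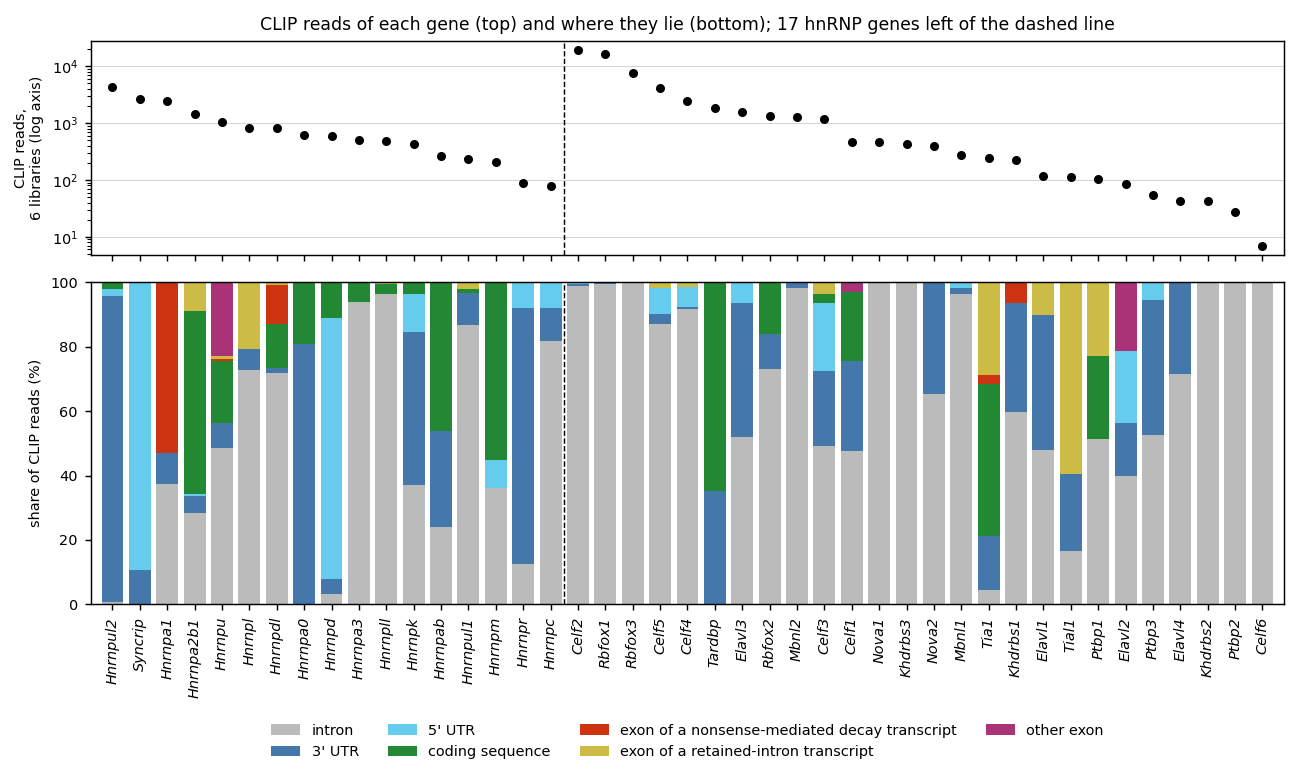
CLIP reads of each of the 43 genes, summed over 6 libraries (top, log axis), and the share of those reads in each kind of region (bottom, percent), with the 17 hnRNP genes left of the dashed line and each block ordered by reads. Grey introns fill most bars on the right, led by Celf2 (18909 reads), whereas Hnrnpul2 and Syncrip on the left have almost no grey.

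Hnrnpul2, which encodes an hnRNP U-like protein, had 4070 of its 4288 reads in the 3′ UTR. A single position there, chr19:8831611-8831710, held 1543 reads, with 194, 100 and 486 in saline replicates 1, 2 and 3 and 392, 271 and 100 in the methamphetamine replicates. Reads of a position are unscaled here and below, and the libraries differ in depth. Scaled to CPM these were 219, 358 and 358 against 807, 326 and 253. The position just downstream had 1072 reads although it holds no run of 3 guanines (shown above). GENCODE also has a same-strand gene overlapping Hnrnpul2, AC129217.1, whose reads cannot be told apart from those of Hnrnpul2.

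Syncrip, which encodes hnRNP Q, a translation and mRNA transport factor, had 2412 of its 2704 reads in the 5′ UTR and the remaining 292 in the 3′ UTR. Its top position, chr9:88482210-88482309, held 852 reads, with 168, 22 and 317 in the saline libraries and 84, 187 and 74 after methamphetamine. Scaled to CPM these were 190, 78.8 and 233 against 173, 225 and 187. These 5′ UTR positions are intronic in other coding transcripts of Syncrip. A same-strand gene, Gm20537, overlaps the locus.

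Hnrnpa1, an abundant nuclear shuttling protein, had 1317 of its 2488 reads in exons used by its NMD transcripts. The NMD exon position chr15:103245533-103245632 had 645 reads, with 89, 73 and 157 in the saline libraries and 133, 134 and 59 after methamphetamine. Scaled to CPM these were 101, 262 and 116 against 274, 161 and 149. An intron position 64 nt from the nearest exon, chr15:103246233-103246332, held 864 more. Neither of these positions lies within the span of a protein-coding transcript of Hnrnpa1 in GENCODE. The listed positions in the NMD exons, 3 in the saline list and 2 in the methamphetamine list, were labelled 3′ UTR in the authors' deposited table. NMD exons took 6.45% to 13.8% of the reads of hnRNP genes over the 6 libraries, against 0.223% to 0.269% over all genes, and Hnrnpa1 supplied most of that share. Hnrnpa1 has processed copies elsewhere in the genome, and how multiply mapping reads were treated is not given in the sources used here.

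Tardbp, which encodes TDP-43, had all of its 1809 reads in exons, 1173 in the coding sequence and 636 in the 3′ UTR. Its 2 leading positions lie side by side at the end of the coding sequence, chr4:148618583-148618682 with 616 reads and chr4:148618483-148618582 with 557. Both are intronic in other coding transcripts of the gene, whose alternative 3′ end is known for autoregulation of TDP-43. Masp2 overlaps Tardbp on the opposite strand, and whether counting used strand is not given in the sources used here.

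Among the other hnRNP genes, Hnrnpd, an AU-rich element binding protein, had 474 of its 584 reads in the 5′ UTR, and 1 position held 67.0% of all its reads. Hnrnpa0 had 501 of 620 reads in the 3′ UTR and Hnrnpa2b1 838 of 1469 in the coding sequence. Hnrnpl, whose product binds CA repeats, was mostly intronic (72.8% of 835 reads), as were Hnrnpll (96.5% of 482) and Hnrnpa3 (93.8% of 504). Hnrnpc, Hnrnpr and Hnrnpm had 77, 88 and 207 reads.

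In the neuronal families most reads were deep in introns. Celf2, a Celf protein of brain and muscle, had 98.9% of its reads in introns, and 1 position, chr2:7379595-7379694, 14432 nt from the nearest exon, held 46.5% of them. That position had 1806, 555 and 2654 unscaled reads in the saline libraries and 857, 1584 and 1328 after methamphetamine. Scaled to CPM these were 2041, 1988 and 1954 against 1764, 1907 and 3364. Rbfox3, which encodes the neuronal nuclear antigen NeuN, had 99.9% of its reads in introns, with 2496 reads at chr11:118736363-118736462 and 2024 at chr11:118600063-118600162. Rbfox1 was different in spread: its 16265 reads lay in 824 positions, and the top position held only 2.58% of them. Genomic sequence of introns was not used here, so no letters are shown for these positions.

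Within families the reads were unequal. Celf2 (18909), Celf5 (4106), Celf4 (2444) and Celf3 (1202) stood above Celf1 (467) and Celf6 (7). Nova1 had 457 reads, all intronic and 71.8% of them at 1 position, and Nova2 391, 34.5% of them in exons. Ptbp1, Ptbp2 and Ptbp3 had 105, 27 and 55 reads, Mbnl1 and Mbnl2 279 and 1256. Elavl3 had 1553 reads, 646 of them in its 3′ UTR, and Elavl1, Elavl2 and Elavl4 had 119, 85 and 42. Khdrbs1, Khdrbs2 and Khdrbs3, the Sam68 family, had 223, 42 and 430, and Tia1 and Tial1 240 and 114.

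The authors deposited a list of called peaks for each treatment (how replicates were combined is not given in the sources used here), and 32 of the 43 genes (74.4%) had a position in at least 1 list. Of the 11012 RNA-seq genes at or above the lowest mean RNA level among the 43, 49.3% had one, and of all 18208 genes 38.7%. Only the lowest level is matched in this way. CLIP reads rose with RNA level among the 43 (rho 0.60, and 0.38 for reads in exons), and the part of RNA level in these shares was not tested. Each list held 30 of the genes, and 28 were in both. The 11 genes without a listed position were Hnrnpll, Hnrnpm, Hnrnpr, Celf6, Ptbp2, Ptbp3, Elavl2, Elavl4, Khdrbs2, Khdrbs3 and Tia1. In the saline list the group had 157 positions and in the methamphetamine list 134, or 208 distinct ones.

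Rbfox1 had the most listed positions, 36 in the saline list and 17 in the methamphetamine list, all labelled distal intron in the authors' deposited table. Celf5 followed with 18 and 24, then Celf2 with 18 and 4, Hnrnpul2 with 13 and 12 and Rbfox3 with 6 and 7. Hnrnpul2's were in the 3′ UTR except for 1 in the 5′ UTR, and all 4 of Tardbp's in either list were labelled 3′ UTR in the authors' deposited table, although 2 of them are coding in GENCODE. Because a list is a single call set per treatment, a difference between the lists has no replicates behind it. Overlap by at least 1 bp with the saline list was found for 63.4% of the group's methamphetamine positions (Wilson 95% interval 55.0 to 71.1), against 48.7% of all positions of that list. The reverse overlap was 53.5% of its saline positions (45.7 to 61.1), against 50.0% of all. The intervals cover counting error only and treat adjoining positions of a gene as separate, so they may be too narrow.

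**Figure D2:**
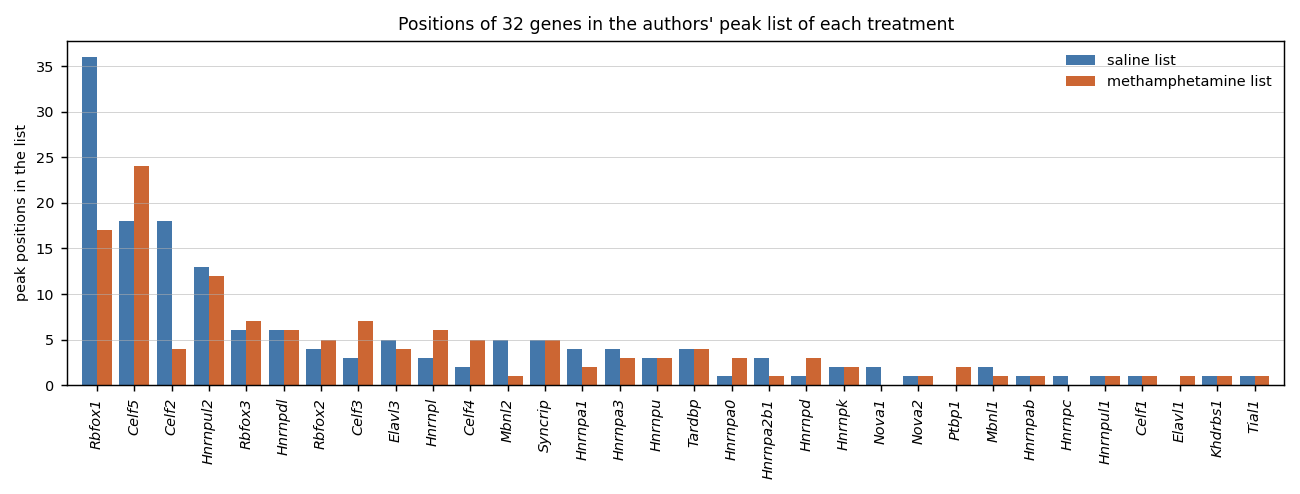
Number of positions of each gene in the authors' saline list (blue bars) and methamphetamine list (orange bars), for the 32 genes with at least 1 listed position. Rbfox1 (36 and 17), Celf5 (18 and 24) and Celf2 (18 and 4) stand on the left, and most genes have 1 to 7 positions in a list.

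A position with many reads was not always listed. Of the 10 positions with the most reads in the group 3 were listed, and the leading Celf2, Rbfox3 and Hnrnpul2 positions named above were in neither list. Over all genes 13.6% of the 500 most-read positions were listed, and 9.37% of all counted positions, against 7.15% of the group's. Listed positions of hnRNP genes in introns lay 87.5 nt (median) from the nearest exon and all within 500 nt, 20 of 20. Those of the other genes lay 9141 nt away (median), with 20 of 119 within 500 nt. Over all genes the median was 1179 nt, with 3392 of 9739 (34.8%) within 500 nt. The hnRNP genes are also shorter (median span 14.1 kb against 78.3 kb), and the part of gene size in this difference was not tested.

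Guanine runs were searched as GGG or GGGG on the transcribed strand of positions that lay within 1 exon, overlapping runs counted once per position. Of the group's 45 such listed positions, 40 (88.9%, Wilson 95% interval 76.5 to 95.2) held GGG and 27 (60.0%) held GGGG. Several of them adjoin others of the same gene, so the interval, which treats them as separate, may be too narrow. Over all 3403 listed exonic positions the shares were 82.4% and 49.7%. Of the group's 272 exonic positions outside the lists 61.4% held GGG and 26.5% GGGG. The Hnrnpa0 and Hnrnpl positions with the longest runs had 7 guanines in a row, and Syncrip, Hnrnpa1, Hnrnpd and Hnrnpul2 were among those with 6. Hnrnpul2 at chr19:8831711-8831810 and Tardbp at chr4:148618083-148618182 had none of 3. A match of letters does not show a binding site.

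RNA levels were compared between genes per kilobase of merged exon, as log2 CPM per kb. Hnrnpa0 (6.72 ± 0.32, SD over 6 libraries) and Celf1 (6.70 ± 0.70) were the highest, and these values differed by less than their spread. Rbfox3 (5.63 ± 0.24), Celf5 (5.62 ± 0.20), Celf4 (5.55 ± 0.29) and Rbfox1 (5.47 ± 0.07) came next, again closer to each other than their spread. Khdrbs2 (-0.87 ± 0.90) was the lowest, next to Elavl2 (0.16 ± 0.61), Tial1 (0.18 ± 0.27) and Elavl4 (0.23 ± 1.15), with overlapping spread.

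**Figure D3:**
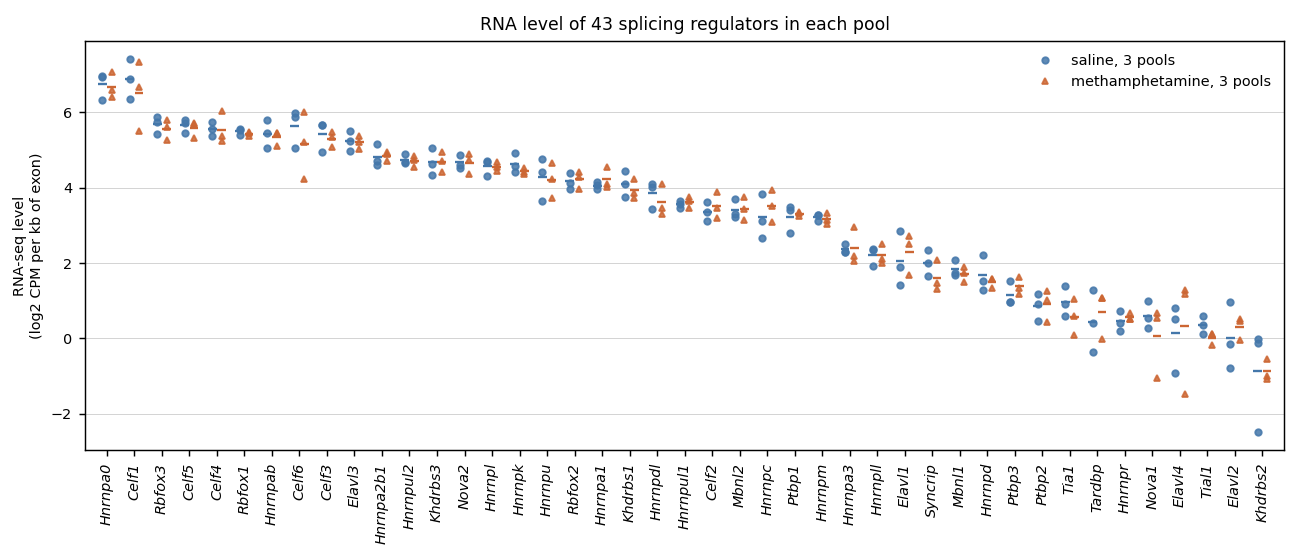
RNA-seq level of each of the 43 genes in each pool, as log2 CPM per kb of exon, ordered by the mean; circles are the 3 saline pools, triangles the 3 methamphetamine pools, and short lines the mean of a treatment. Hnrnpa0 and Celf1 are on the left near 6.7 and Khdrbs2 on the right at -0.87, and in every gene the points of the treatments overlap.

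Within the families the levels had a clear order in some cases. Rbfox2 (4.20 ± 0.20) was below Rbfox1 and Rbfox3. Nova2 (4.67 ± 0.21), the form prevalent in cortex, was above Nova1 (0.33 ± 0.71). Elavl3 (5.22 ± 0.20) was far above Elavl1 (2.18 ± 0.59), the form found in all tissues. Ptbp1 (3.27 ± 0.24), the form of non-neuronal cells, stood above Ptbp3 (1.27 ± 0.28) and Ptbp2 (0.88 ± 0.35), the form of neurons. Mbnl2 (3.43 ± 0.26) was above Mbnl1 (1.77 ± 0.19), Khdrbs3 (4.69 ± 0.28) above Khdrbs1 (4.02 ± 0.29), and Tardbp (0.57 ± 0.68) was near Tia1 (0.77 ± 0.45). In bulk tissue fewer cells of a type and less RNA per cell cannot be told apart.

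The antibody's target and its close relatives were measured as well: Hnrnph1 was 5.01 ± 0.25 log2 CPM in saline and 4.94 ± 0.03 after methamphetamine (SD, n = 3 each), with no change past the test (change -0.07, SE 0.19, adjusted p = 0.9998, limma). Hnrnph2, Hnrnph3 and Hnrnpf differed by 0.06, 0.14 and 0.21, with the same adjusted p.

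Many of the genes followed the split of the libraries across the treatments. In 24 of 43 the 3 libraries on one side of the first component were all above the 3 on the other. Over all genes, those with few reads included, the share was 38.8%. The split was drawn from the more highly expressed genes, so the count is a description. These hold most of the 43 but not Elavl2, Elavl4, Khdrbs2, Nova1, Tardbp or Tial1. Saline replicates 1 and 3 and methamphetamine replicate 2 were the high ones for 12 genes: Celf1, Celf3, Celf5, Celf6, Hnrnpa0, Hnrnpdl, Hnrnpll, Hnrnpu, Khdrbs1, Ptbp1, Rbfox3 and Syncrip. The other 3 libraries were the high ones for another 12: Celf2, Elavl1, Elavl2, Elavl4, Hnrnpc, Hnrnpr, Mbnl1, Mbnl2, Ptbp2, Ptbp3, Rbfox2 and Tardbp. Hnrnpu, a scaffold-attachment protein, was at 7.96, 7.19 and 8.31 log2 CPM in saline replicates 1, 2 and 3 and at 7.27, 8.19 and 7.78 in the methamphetamine replicates. Elavl1 was at 5.27, 6.23 and 4.80 against 5.88, 5.06 and 6.09. The range over the 6 libraries had a median of 0.73 over the 43 genes, from 0.17 in Rbfox1 to 2.75 in Elavl4, against 1.03 over all genes. The CLIP reads per gene were separated by the split in 4 of 39 tested genes (Celf1, Celf3, Hnrnpk and Nova2), against 25.5% of all, and after adjustment for RNA 7 of 41, against 26.7%.

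After methamphetamine the RNA of none of the 43 genes differed from saline past the adjusted threshold of 0.05 (limma; 0 of 18208 genes tested, 0%). At an unadjusted p under 0.05 there were 276 of 18208 genes (1.52%) and none of the 43, and edgeR and DESeq2 on the recovered reads also made no adjusted call. In none of the 43 did the 3 pools of one treatment lie apart from the 3 of the other, against 6.01% of all genes. The median change was -0.02 on the log2 scale over the 43 genes and 0.00 over all genes, with 17 above and 26 below 0, and single changes ran from -0.54 to 0.31. Scaled to the total reads instead, 29 were above and 14 below 0, and the median of all genes was then 0.09.

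Syncrip had the smallest p. Its levels were 5.62, 5.27 and 5.97 log2 CPM in the saline pools and 5.08, 5.69 and 4.92 after methamphetamine, so that the groups overlapped (change -0.39, SE 0.25, adjusted p = 0.9998, limma). Tia1, a stress granule protein, was at 5.37, 4.89 and 4.58 against 4.57, 5.02 and 4.08 (change -0.39, SE 0.29). Its relative Tial1, one of the lowest genes, was at 2.90, 3.39 and 3.14 against 2.91, 2.60 and 2.89 (change -0.34, SE 0.28). In both, 2 of the 3 methamphetamine pools were below every saline pool and the remaining pool was not. With 1 library left out, the change of Syncrip ran from -0.62 (without methamphetamine replicate 2) to -0.21 (without saline replicate 3), and it was -0.19 with the library split as a covariate. That of Tia1 ran from -0.63 (without methamphetamine replicate 2) to -0.15 (without methamphetamine replicate 3), and that of Tial1 from -0.46 (without saline replicate 1) to -0.22 (without saline replicate 2).

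Nova1 was at 3.68, 4.11 and 3.40 in saline and at 3.67, 2.08 and 3.81 after methamphetamine (change -0.54, SE 0.45). The low value was methamphetamine replicate 2, the pool with 4924 CPM of choroid plexus markers, and without that library the change was 0.01. Elavl4 was at 2.95, 3.23 and 1.51 against 3.71, 0.96 and 3.61, also lowest in that pool (change 0.20, SE 0.75). The part of those markers in these values was not tested. Celf6 was at 7.73, 6.92 and 7.83 against 7.06, 7.88 and 6.09 (change -0.48, SE 0.42). With 1 library left out its change ran from -0.92 (without methamphetamine replicate 2) to -0.03 (without methamphetamine replicate 3), and it was -0.12 with the library split as a covariate. Hnrnpk, a poly-C binding protein, was at 7.12, 7.27 and 7.61 against 7.07, 7.21 and 7.12 (change -0.20, SE 0.17), with changes from -0.31 (without saline replicate 1) to -0.06 (without saline replicate 3). Among the genes with the highest log2 CPM, Celf1 was at 9.96, 9.43 and 10.49 against 9.76, 10.41 and 8.60, Celf4 at 8.86, 8.65 and 8.48 against 8.33, 8.48 and 9.13, and Celf5 at 8.54, 8.18 and 8.47 against 8.05, 8.46 and 8.44. The lowest, Khdrbs2, was at 3.36, 3.23 and 0.89 against 2.29, 2.36 and 2.82. All of these overlapped between treatments.

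**Figure D4:**
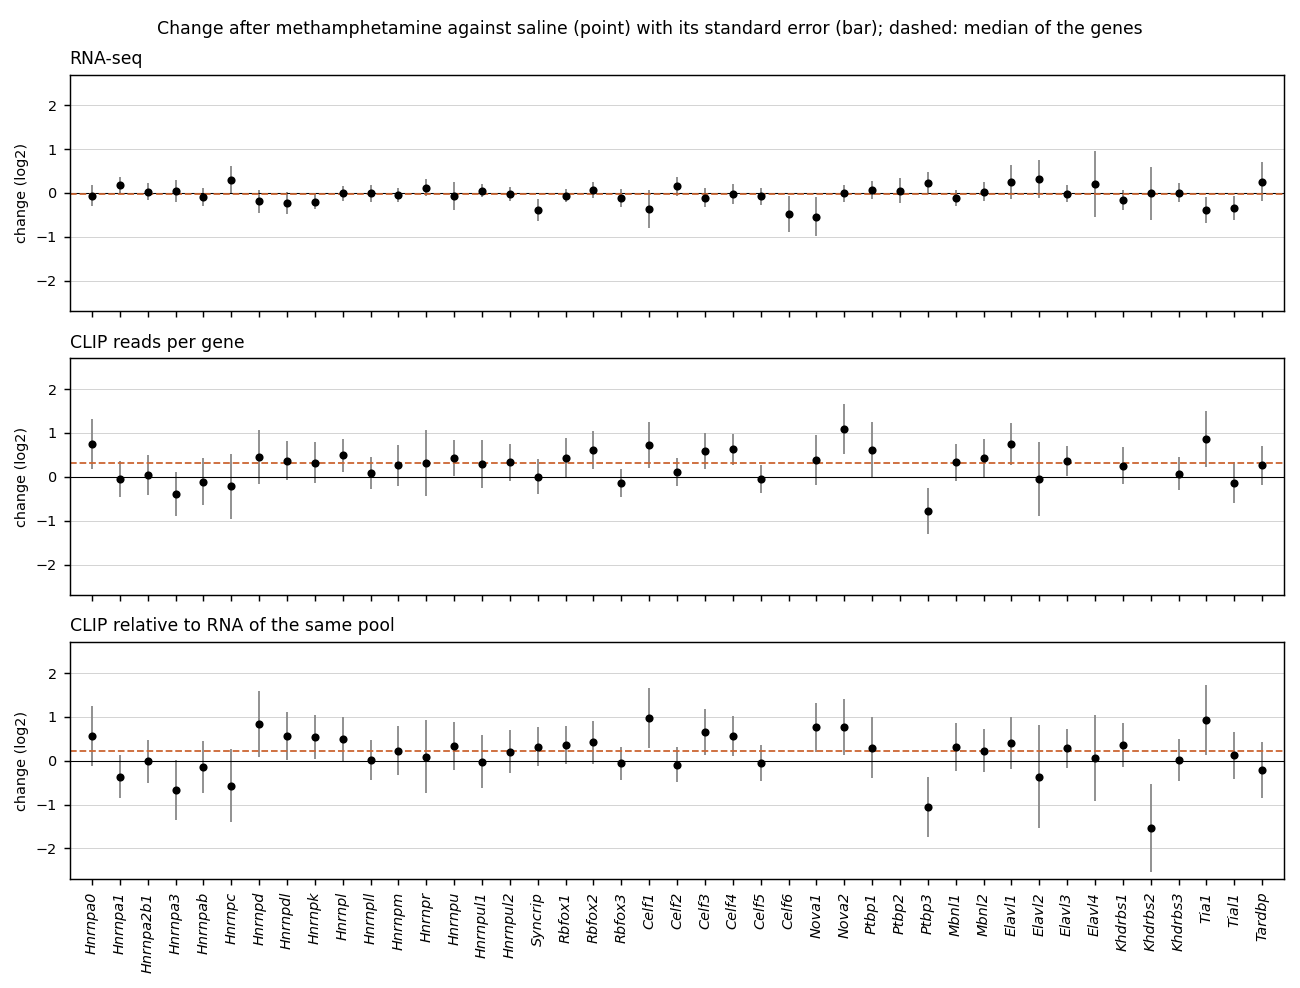
Change after methamphetamine against saline for each of the 43 genes (log2), as points with 1 standard error, in RNA-seq (top, 43 genes), CLIP reads per gene (middle, 39 genes tested) and CLIP relative to RNA of the same pool (bottom, 41 genes tested). The dashed median is -0.02 in the top panel, 0.32 in the middle and 0.23 in the bottom; no gene passed the adjusted test in any panel.

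For CLIP reads per gene, 39 of the 43 passed the filter on low counts (Celf6, Elavl4, Khdrbs2 and Ptbp2 did not). None changed past the adjusted threshold with edgeR's quasi-likelihood test, as none of 8177 genes did (0%). At an unadjusted p under 0.05 there were 429 of 8177 genes (5.25%) and none of the 39, and DESeq2 made no adjusted call. The median change of the 39 was 0.32 on the log2 scale against 0.04 over all genes, and 29 of 39 were above 0. Methamphetamine replicate 1 was the highest library in 23 of 39 genes (59.0%) and in 29.3% of all genes tested. Without that library the median was 0.03, with 21 genes above and 18 below 0, and without methamphetamine replicate 3 it was 0.51.

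Nova2 had the smallest p, with 44.6, 63.8 and 38.9 CLIP CPM in the saline libraries and 199, 55.5 and 56.8 after methamphetamine. The high value was methamphetamine replicate 1, and the groups overlapped (change 1.10, SE 0.57, adjusted p = 0.8822, edgeR). Celf4 was at 413, 287 and 357 against 744, 424 and 475 CPM, with every methamphetamine library above every saline library (change 0.63, SE 0.35, adjusted p = 0.8822, edgeR). Ptbp3, with 55 reads in all, was at 12.9, 15.9 and 10.8 against 7.03, 8.08 and 7.10 CPM, with every methamphetamine library below (change -0.78, SE 0.52, adjusted p = 0.8834, edgeR). These 2 of 39 genes (5.13%) were the ones whose treatments did not overlap, against 9.58% of all genes tested. Elavl1 was at 14.9, 26.6 and 13.2 against 35.2, 29.3 and 23.1 CPM (change 0.75, SE 0.48). Without methamphetamine replicate 1 the change was 0.22 for Nova2 and 0.35 for Celf4.

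Among the genes with the most reads, Celf2 was at 3891, 2868 and 3192 CPM in saline and at 3980, 3178 and 3599 after methamphetamine (change 0.11, SE 0.32). Rbfox3 was at 1464, 1063 and 1559 against 1310, 1156 and 1245 (change -0.14, SE 0.32), and Celf5 at 748, 773 and 742 against 861, 782 and 553 (change -0.04, SE 0.32). Rbfox1, at 3349, 2360 and 2017 against 5602, 2532 and 2377 (change 0.44, SE 0.44), again had its high value in methamphetamine replicate 1, as had Hnrnpul2, at 514, 694 and 816 against 1306, 776 and 465 (change 0.33, SE 0.43). Syncrip was at 452, 314 and 617 against 291, 558 and 532 (change 0.00, SE 0.40). The changes of Celf2, Rbfox1, Rbfox3, Hnrnpul2, Celf5 and Syncrip turned sign under at least 1 alternative.

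Of the group's single positions 174 had enough reads to test, among 10358 of all genes, and none of either passed the adjusted threshold (0%, edgeR). At an unadjusted p under 0.05 there were 2 of 174 (1.15%), against 347 of 10358 (3.35%). The first was in the coding sequence of Hnrnpdl, chr5:100036578-100036677, with 6, 2 and 32 reads in the saline libraries and 38, 18 and 16 after methamphetamine (change 1.77, SE 0.70, adjusted p = 0.9998, edgeR). The other was an Rbfox1 intron position, chr16:6277156-6277255, with 10, 4 and 14 reads against 17, 15 and 11 (change 1.19, SE 0.49, adjusted p = 0.9998, edgeR). The next were a 3′ UTR position of Hnrnpul2 (change 1.13, SE 0.49) and an intron position of Celf5 (change 1.21, SE 0.55). Without methamphetamine replicate 1 the Hnrnpdl position had a change of 1.13 and the Celf5 position of 0.54, and without saline replicate 3 the Hnrnpdl position had 2.66. Scaled to CPM, the treatments did not overlap at 10 of the 174 positions (5.75%), all higher after methamphetamine, against 7.95% of all tested positions in either direction and 4.33% in that direction.

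The 6 positions with the most reads in the group did not pass the test. Celf2 at chr2:7379595 had a change of 0.23 (SE 0.33) and at chr2:7051995, with 3384 reads, of -0.21 (SE 0.30). The Rbfox3 positions had changes of -0.26 (SE 0.29) and -0.34 (SE 0.53). The Hnrnpul2 3′ UTR positions had 0.57 (SE 0.50) and 0.63 (SE 0.56). Without methamphetamine replicate 1 the median over the tested positions of the group, 0.24, was -0.09.

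CLIP reads were also set against the RNA of the same pool, as log2 CLIP CPM minus log2 RNA CPM, for 41 of the genes (Celf6 and Ptbp2 had fewer than 30 CLIP reads). The difference is not corrected for length, and intron reads count in the CLIP value but come from RNA that is not mature mRNA. Tardbp had the highest mean difference, 4.65, with 4.68, 3.85 and 5.76 in the saline pools and 4.94, 5.36 and 3.33 after methamphetamine. It had 1809 CLIP reads, all in exons of some transcript, against 349 RNA-seq reads. Rbfox1 (3.82), Celf2 (3.55), Syncrip (3.31), Hnrnpa1 (2.96), Nova1 (2.88), Rbfox3 (2.11) and Hnrnpul2 (1.87) followed in that order. Most reads of Rbfox1, Celf2, Nova1 and Rbfox3 were in introns, and most of Syncrip, Hnrnpa1 and Hnrnpul2 in exons. The ranges of neighbours in this order overlapped over the 6 pools.

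Celf1 was the lowest, at -3.41, with -4.11, -2.71 and -4.87 in saline and -2.37, -4.14 and -2.28 after methamphetamine. It was the gene with the most RNA-seq reads in the group, 24936, and had 467 CLIP reads. Hnrnpc (-1.83) and Nova2 (-1.77) came next. In exons of any transcript, Tardbp had 5183 CLIP reads per 1000 RNA-seq reads, Syncrip 2327, Hnrnpa1 1022, Hnrnpd 929 and Hnrnpul2 841. The leading Tardbp positions and the Syncrip 5′ UTR positions are intronic in other coding transcripts. Of the 1558 exonic CLIP reads of Hnrnpa1, 1317 lay in NMD exons. The part of RNA that is not mature mRNA in these ratios was not tested. At the low end Nova1, Khdrbs2 and Khdrbs3 had no exonic CLIP read, Rbfox3 had 1.04 per 1000 RNA-seq reads, Mbnl1 5.76, Mbnl2 5.86, Celf1 9.62 and Hnrnpc 10.9. The ratios rest on summed libraries of different depth and are compared as a description. Of the 43 genes 32 overlap another gene, 19 of them one on the same strand, Syncrip and Hnrnpul2 included. How reads of overlapping genes, or of copies such as those of Hnrnpa1, entered either count is not given in the sources used here.

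**Figure D5:**
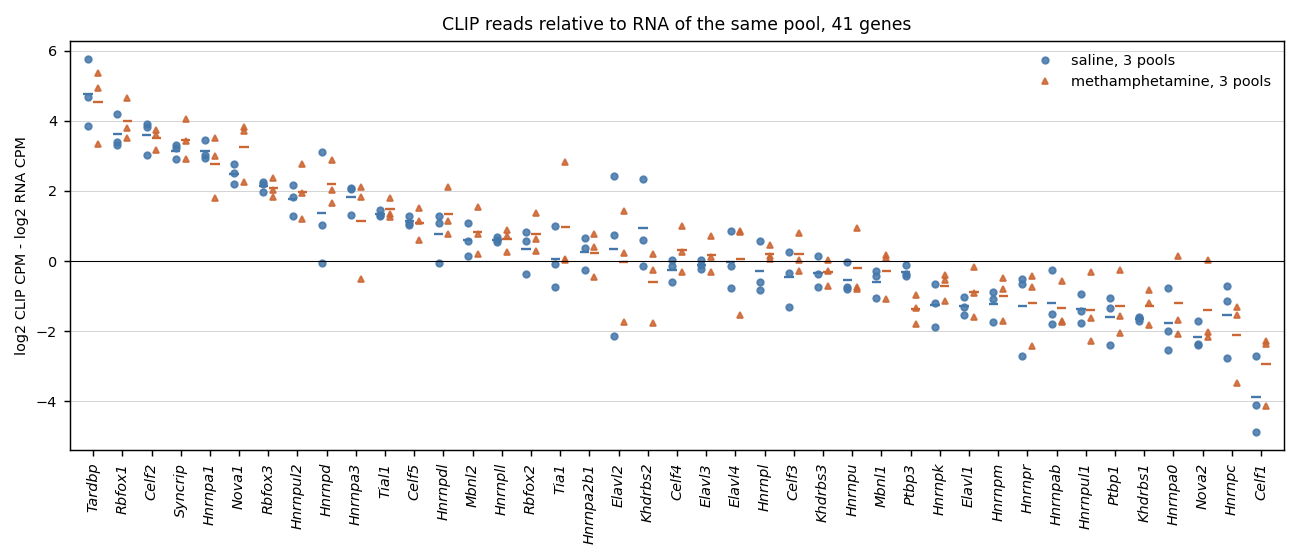
CLIP relative to RNA of the same pool (log2 CLIP CPM minus log2 RNA CPM) for 41 genes, ordered by the mean; circles are saline pools, triangles methamphetamine pools, short lines the mean of a treatment. Tardbp (mean 4.65) is on the left and Celf1 (mean -3.41) on the right, about which the points of the treatments mix.

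After adjustment for RNA, none of the 41 genes changed past the adjusted threshold (limma; 0 of 9160 genes, 0%). At an unadjusted p under 0.05 there were 286 of 9160 (3.12%) and none of the 41. The median change was 0.23 against 0.01 over all genes, with 28 genes above 0, and without methamphetamine replicate 1 it was 0.01, with 21 above 0. Ptbp3 was the 1 gene of 41 (2.44%) whose treatments did not overlap, against 8.07% of all genes: it was at -0.12, -0.44 and -0.37 in saline and at -1.79, -0.97 and -1.33 after methamphetamine (change -1.06, SE 0.68, adjusted p = 0.9960, limma). Khdrbs2 had a change of -1.54 (SE 1.00, adjusted p = 0.9960, limma), on 42 CLIP reads. Celf1 (0.97, SE 0.69) and Nova1 (0.76, SE 0.55) had the next smallest p values. Khdrbs2 was -0.84 without saline replicate 3, Celf1 0.48 without saline replicate 3 and 1.57 without methamphetamine replicate 2, and Nova1 0.48 without methamphetamine replicate 2 and 1.27 without methamphetamine replicate 3. Across the library split the Celf1 difference was 0.35 within the libraries saline 1, saline 3 and methamphetamine 2 and 0.38 within the others, and the Nova1 difference 1.47 and 0.19.

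A further 50 genes of splicing regulation, such as SR proteins and hnRNP H relatives, gave no adjusted call either. In RNA-seq none of 50 had an unadjusted p under 0.05 and the median change was 0.02. In CLIP reads per gene 3 of 41 had one, with a median of 0.38, close to the 0.32 of the 43 genes; after adjustment for RNA 2 of 47 had one, with a median of 0.22. A difference between these lists was not tested.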

How the data were processed

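CLIP-seq and RNA-seq libraries of 6 striatal pools, 3 per treatment, were used. The RNA-seq values are voom log2 CPM deposited by the authors, as the name of the table gives them; whole reads were recovered from it at an offset of 0.5 reads, for 100% of values within 0.05 reads. CLIP counts per 100 nt position come from a count table deposited by the authors, from which 147438 distinct positions were kept, without repeats. The deposited peak lists give each peak a signal value, used as a score of unknown scale. Their deposited p-values and q-values come from a test that the sources used here do not name. Per the submitters' processing notes, which give no roles, the tools were Trimmomatic, UMI-tools, STAR, bedtools, Subread, featureCounts, limma and edgeR, with build mm10. Handling of strand and of multiply mapping reads is not given in the sources used here.

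For RNA-seq, all genes entered limma 3.58.1, with moderated variances that follow a trend. For CLIP, reads per gene and per position entered the quasi-likelihood test of edgeR 4.0.16 after TMM scaling and filterByExpr, with DESeq2 1.42.0 as an alternative. CLIP relative to RNA used limma on log2 CLIP CPM (offset 0.5 reads, at least 30 reads) minus log2 RNA CPM. All p-values were Benjamini-Hochberg adjusted over all features at 0.05. Common variation between replicates (edgeR) was 24.8% for RNA-seq, 49.3% for CLIP per gene and 56.0% for CLIP per position. Regions were taken at the midpoint of a position from GENCODE M21, or from the lists where so stated, with 1-based coordinates. The pools are separate animals per the labels. The fits were also run on simulated data with large known changes and no library split. Such data do not measure the power for smaller changes in these libraries.

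The 43 genes and all lists were chosen with earlier results of these data known. Genes named with their values were those with the smallest p, the highest and lowest levels, the most CLIP reads or listed positions, and the families side by side; other genes that are named were chosen after their values were seen.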

Additional observations from a re-analysis of the deposited data

How the results depend on the processing

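No alternative gave an adjusted call for any of the 43 genes or their positions. Over all genes, adjusted calls stayed at 0 in RNA-seq and in CLIP reads per gene under every alternative run. They rose to 414 positions of 140449 without a count filter in edgeR and to 1 with DESeq2, and to 2 genes after adjustment for RNA without saline replicate 2 (range 0 to 2). Positions of the group at an unadjusted p under 0.05, 2 at first, were 32 of 2594 with DESeq2 (1.23%, against 1.38% of all positions) and 124 of 2594 without a filter (4.78%, against 4.84%). They were 1 of 174 with the library split as a covariate (0.575%, against 2.52%) and 1 with the replicate block (0.575%, against 1.23%), and 0 to 11 with a library left out, the 11 without methamphetamine replicate 2 (4.80%, against 8.42%). Their median change, 0.24, was 0.98 with DESeq2 (0.55 over all positions), 0.58 without a filter (0.21 over all) and -0.09 to 0.38 with a library left out. With the library split as a covariate 1 gene had an unadjusted p under 0.05 in RNA-seq (Nova1, 2.33%, against 2.97% of all genes). After adjustment for RNA it was also 1 (Hnrnpd, 2.44%, against 4.85%). With a library left out the number was 0 to 2 in RNA-seq, 0 to 1 in CLIP and 0 to 1 after adjustment. The 2 in RNA-seq were 4.65%, against 5.26% of all genes, and a single gene was 2.33%, against 2.02% or 5.10%. In CLIP a single gene was 2.56%, against 4.51% or 10.1%. After adjustment it was 2.44%, against 2.25% to 6.80%. Of the methamphetamine list at or above the median signal value, 81.5% met the saline list, against 63.4% of the whole list; over all genes these were 59.6% and 48.7%. For the saline list they were 59.5% and 53.5% in the group and 56.1% and 50.0% over all genes. GGGG in place of GGG gave 60.0% against 88.9%, as the stricter run must give fewer.

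Directions turned for some genes. In CLIP reads per gene with listed positions only, the changes were -0.40 for Celf2, -0.25 for Rbfox1, 0.15 for Rbfox3, 0.25 for Celf5 and 0.11 for Syncrip; Rbfox3 was 0.24 without the 1% of positions with the most reads, and Syncrip 0.22 with the split as a covariate. For Celf2 at position 7379595 the change was -0.17 without a filter, and after adjustment for RNA Tardbp was 0.21 and Celf2 0.11 with the split as a covariate. With a library left out the changes ran over 0: in CLIP reads per gene -0.02 to 0.24 for Celf2, -0.24 to 0.26 for Syncrip, -0.07 to 0.67 for Rbfox1, -0.12 to 0.62 for Hnrnpul2 and -0.17 to 0.12 for Celf5. For positions they were -0.82 to 0.17 for Rbfox3 at 118600063, -0.14 to 0.87 for Hnrnpul2 at 8831611, -0.14 to 1.00 for Hnrnpul2 at 8831711 and -0.12 to 0.36 for Celf2 at 7379595. After adjustment for RNA they were -0.38 to 0.08 for Celf2, -0.68 to 0.39 for Tardbp and -1.18 to 0.12 for Hnrnpc. Nova1 RNA ran from -0.85 to 0.01, the highest without methamphetamine replicate 2. The cause was not tested.

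Same-numbered pools of the treatments share only a number: the correlation of their deviations from the treatment mean was -0.35, -0.82 and -0.49 in RNA-seq. With the replicate block no adjusted call was made, the median change of the 43 genes was -0.02 in RNA-seq, 0.26 in CLIP reads per gene and 0.23 after adjustment for RNA. At this CLIP depth the filter on low counts kept 39 of the 43 genes and 174 of the 2659 positions; without it all 43 genes and 2594 positions were fitted.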
